A study of Mus musculus with 6 samples.

Results

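The genes of ligands that a tumor cell can display to NK and T cells, Raet1e, Ulbp1, H60b, H60c, H2-T23, Cd274, Pvr, Lgals9 and Cd47, were read in sorted CD45- cells of RANK-/- and RANK+/+ mammary tumor transplants. They were found on the arrays by the transcript accession of each probe, as 10 probes of 9 genes among 55681 gene probes of 36799 genes or transcripts. The 9 genes were chosen by their role and selected on measured ratios of this same comparison, so those ratios are given as a description, and no test of them is used as support. The NKG2D ligand genes Ulbp1, H60b and H60c stayed at or near the array background. Raet1e was lower and H2-T23 higher in the RANK-/- labeled channel in every pair of RNAs, whereas the signs of Cd274, Lgals9, Cd47 and Pvr depended on the pair.

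NKG2D is an activating receptor of NK cells and CD8+ T cells. Its mouse ligands, which are the RAE-1 proteins (Raet1 genes), the H60 proteins and MULT1 (Ulbp1), are distant relatives of MHC class I that appear on stressed, infected or transformed cells. H2-T23 encodes Qa-1, a nonclassical class I molecule that presents leader peptides of other class I chains to CD94/NKG2 receptors. The checkpoint ligands restrain immune cells: PD-L1 (Cd274) binds PD-1, the poliovirus receptor CD155 (Pvr) binds TIGIT, CD96 and the activating receptor DNAM-1, galectin-9 (Lgals9) binds TIM-3, and CD47 binds SIRPα on macrophages and blocks phagocytosis.

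The tumors came from MMTV-PyMT mice, in which a mammary promoter drives the polyomavirus middle T oncogene. Tnfrsf11a, the gene of RANK (receptor activator of NF-kB), was either intact (RANK+/+) or deleted (RANK-/-) in the donor. Tumor cells of late carcinomas had been placed in the mammary fat pad of syngeneic C57BL/6 hosts, so any CD45- cell of the host in the sorted fraction would carry RANK in both groups. Live CD45- cells were sorted from the dissociated tumors, and 1 RNA of each genotype was hybridized per 2-color array. There were 3 pairs of RNAs with 2 technical arrays each (A and B), that is 6 arrays and n = 3. The RANK-/- RNA was in Cy5 (red) in pair 1 and in Cy3 (green) in pairs 2 and 3. Whether the 3 RNAs of 1 genotype came from separate tumors is not in the labels, so the spread between pairs may be partly technical.

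Values below are log2 ratios of the RANK-/- labeled channel over the RANK+/+ labeled one, with arrays A and B averaged, or normalized log2 intensities of 1 channel, called levels. Per array and genotype, 51.9% to 58.8% of gene probes were well above background by the scanner software. Tnfrsf11a, the deleted gene, was higher in the RANK-/- labeled channel in all pairs (2.03, 1.15 and 1.76), which goes against the label. Its probe position relative to the deleted part is not given in the sources used here. Directions given here follow the labels all the same. Of the sort markers, Epcam was well above background everywhere (6 of 6 arrays, both genotypes), and Ptprc, which encodes CD45, on 5 arrays in the RANK-/- labeled channel and on 4 in the other. The Epcam ratios were 1.04, -0.67 and 0.52 and those of Ptprc -0.93, 0.10 and 0.14.

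Counts over all genes set the background for the ligands. A gene was tested if the scanner software called a probe well above background for 1 genotype in 2 or more pairs, on arrays A and B alike, which 22503 genes and 6 of the 9 ligand genes met. By limma, 0 of the 22503 tested genes (0%) passed an adjusted p of 0.05, with 647 genes at an unadjusted p under 0.05. The rank product called in the RANK-/- labeled channel 10 genes as higher (0.0444%) and 6 as lower (0.0267%). Of the 6 tested ligand genes, 0 were among the genes called, and nothing is read from this count, because the same ratios chose the genes. As a description, 1 tested ligand gene of 6 was higher in all 3 pairs, against 9.93% of all genes, and 1 of 6 was lower in all 3 pairs, against 9.65%.

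**Figure D1:**
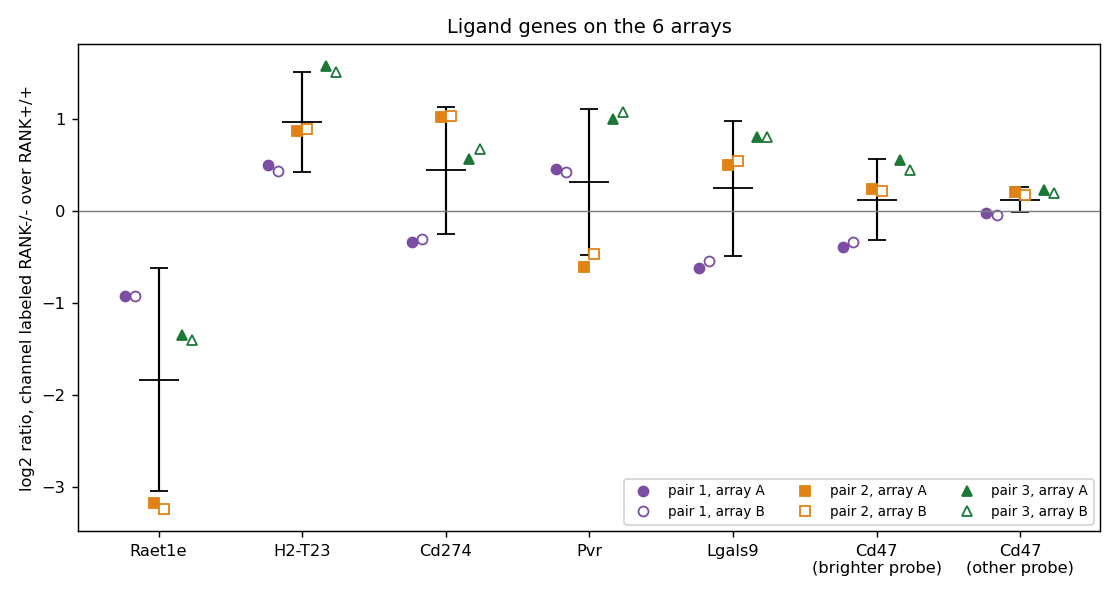
Log2 ratio of the RANK-/- labeled over the RANK+/+ labeled channel for the 6 ligand genes that were tested, with both probes of Cd47. Each point is 1 array (filled, array A; open, array B), and the horizontal bar and whiskers are the mean and SD over the 3 pairs. Raet1e lies below 0 and H2-T23 above 0 on all 6 arrays, and arrays of the same pair lie close together.

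Among the NKG2D ligand genes chosen here, Raet1e was the 1 gene whose probe was well above background for both genotypes on all 6 arrays. Its level was 9.57, 10.43 and 10.05 in the RNAs labeled RANK+/+ of pairs 1, 2 and 3, and 8.65, 7.22 and 8.68 in those labeled RANK-/-. The RANK-/- RNA of pair 2 was the lowest of the 6. The spot was 18.9 to 24.7 times its local background in the RANK+/+ labeled channel and 3.16 to 9.38 times in the other. The log2 ratios were -0.92, -3.21 and -1.37, and their mean was -1.83 ± 1.21 (SD, n = 3), or 3.56-fold lower. Of the 22503 tested genes, 8 had a lower mean and 96.5% had a smaller SD over the pairs. Because the gene was chosen on these ratios, the rank is a description and no support. Technical arrays differed by at most 0.07, far less than the pairs did. With pair 2 left out the mean was -1.15, and with pair 1 left out it was -2.29.

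**Figure D2:**
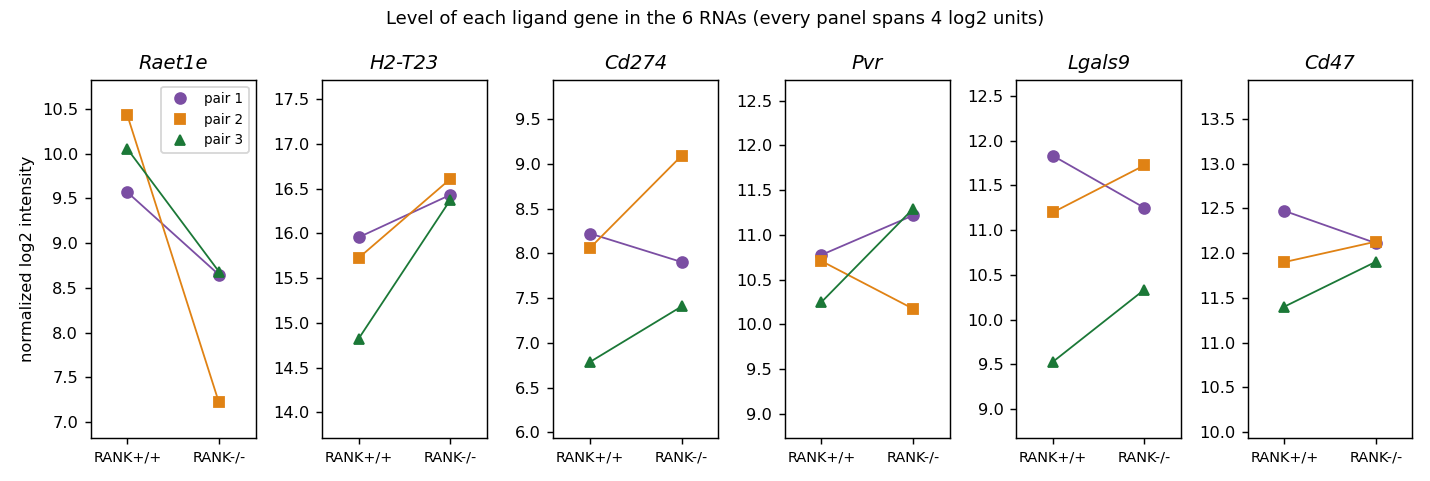
Normalized log2 intensity of the 6 tested ligand genes in the 3 RNAs labeled RANK+/+ (left of each panel) and the 3 labeled RANK-/- (right), with arrays A and B averaged and the RNAs of a pair joined by a line. Every panel spans 4 log2 units but starts at its own level, since levels of different probes are not comparable. The 3 lines of Raet1e go down and those of H2-T23 go up, and the lines of the other genes cross.

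Probes made for another RAE-1 transcript gave the same signs. The accession NM_009018, which the annotation of the study names Raet1c, has no entry in the RefSeq table used for symbols and was read by 2 probes. The brighter probe (A_66_P106148) gave -1.04, -1.92 and -1.08 (mean -1.35 ± 0.50). The RANK-/- labeled channel was well above background on 5 of 6 arrays, all but array A of pair 2, and the other on 6. The pair 2 ratio of this probe (-2.13 on array A and -1.71 on array B), and with it the mean, rests in part on a bound. The dimmer probe (A_55_P2058550) gave -0.60, -1.16 and -0.74. It passed the filter through the RANK+/+ labeled channel (6 arrays) and was above background in the other on the 2 arrays of pair 3, so that in pairs 1 and 2 its ratios are bounds and have no order. Raet1 genes are near-identical copies, and reads of 1 copy by the probe of another cannot be told apart here. The shared signs are therefore not a second, independent reading. No probe could be tied to Raet1a, Raet1b, Raet1d or H60a by symbol. Transcripts without an entry in the RefSeq table keep their accession, so probes of these genes may be on the array under an accession alone.

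How alike the copies are is shown by their promoters, which lie outside the transcripts and do not tell what a probe reads. RefSeq (GRCm38.p6) lists 2 start sites for Raet1e. Upstream of the second, 245 of 248 bases (98.8%) were the same as upstream of Raet1d, while the first start site had 28.7% of its bases in common with Raet1d without gaps. The stretches below run 5′ to 3′ on the plus strand, at chr10:22173249-22173496 for Raet1e and chr10:22361644-22361891 for Raet1d, and capitals mark the 3 bases that differ.
Raet1e: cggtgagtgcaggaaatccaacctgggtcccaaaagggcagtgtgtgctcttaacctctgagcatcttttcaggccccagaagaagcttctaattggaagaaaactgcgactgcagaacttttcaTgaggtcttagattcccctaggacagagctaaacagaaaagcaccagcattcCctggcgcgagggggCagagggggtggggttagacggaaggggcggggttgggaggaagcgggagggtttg
Raet1d: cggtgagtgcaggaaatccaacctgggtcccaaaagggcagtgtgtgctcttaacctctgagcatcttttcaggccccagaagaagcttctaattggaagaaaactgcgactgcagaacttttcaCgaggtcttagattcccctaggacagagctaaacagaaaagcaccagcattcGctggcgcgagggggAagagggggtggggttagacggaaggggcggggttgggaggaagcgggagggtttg
Both stretches hold 1 heat shock element unit (GAANNTTC, either strand), which begins 166 bases before the Raet1e start and 168 before that of Raet1d. Of all 32851 promoter windows of 250 bases, 6.69% hold such a match, which is a description of letters and not of binding.

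The other NKG2D ligand genes of the 9, Ulbp1, H60b and H60c, were at or near background. The H60c probe was not well above background on any array in either channel, and its spot was 0.923 to 1.10 times its local background in the RANK-/- labeled channel and 0.883 to 1.16 times in the other. The H60b probe was well above background on 0 arrays in the RANK-/- labeled channel and on 3 of 6 in the RANK+/+ labeled channel (both arrays of pair 2 and array B of pair 3). Its spot was 1.03 to 1.21 times background in the first channel and 1.21 to 1.48 times in the second. The Ulbp1 probe was well above background on 1 array in the RANK-/- labeled channel (array B of pair 2) and on 2 in the other (both arrays of pair 3), at 1.11 to 1.30 and 1.02 to 1.48 times background. None of the 3 genes was tested and no fold is given, and at this signal a difference between the genotypes was not measurable.

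**Figure D3:**
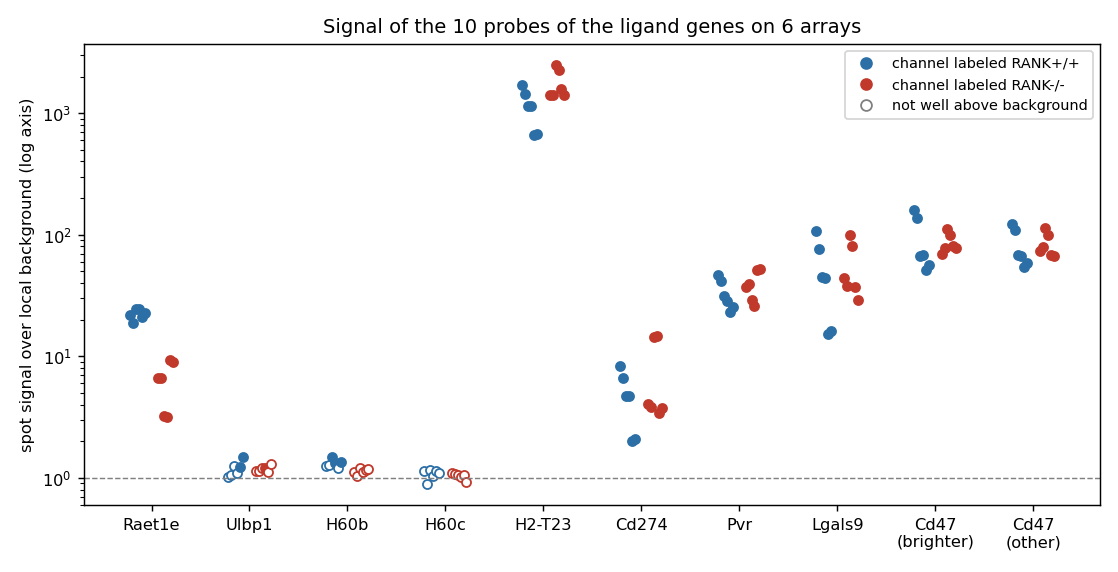
Median spot signal divided by median local background (log axis) for the 10 probes of the 9 ligand genes, with 6 arrays per channel (blue, labeled RANK+/+; red, labeled RANK-/-; open, not well above background; dashed line, signal equal to background). Ulbp1, H60b and H60c lie next to 1, all other probes lie above background on all arrays, and heights of different probes are not comparable.

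On the receptor side, Klrk1, which encodes NKG2D, was above background on 0 arrays. Its adaptors Hcst (DAP10) and Tyrobp (DAP12), which leukocytes express, were tested and were negative in pair 1 and positive in pairs 2 and 3 (-0.27, 0.32 and 0.21 for Hcst, and -1.32, 0.63 and 0.51 for Tyrobp). Of 4 genes of the CD94/NKG2 receptors that bind Qa-1, 0 were tested. Among 10 genes of DNA damage and stress responses, which are known to induce NKG2D ligands, 8 were tested, 0 were called by either test, 1 was higher in all pairs (Hsf1, 0.21 ± 0.18, the heat shock transcription factor) and 1 lower (E2f2, -0.38 ± 0.30, a transcription factor of the cell cycle). Their median over genes was 0.09, 0.02 and -0.19 in pairs 1, 2 and 3, against medians of 0.02, -0.01 and 0.00 for all genes tested.

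H2-T23 was higher in the RANK-/- labeled channel in every pair. Its level was 15.96, 15.73 and 14.82 in the RNAs labeled RANK+/+ of pairs 1, 2 and 3, and 16.43, 16.61 and 16.37 in those labeled RANK-/-. The RNAs labeled RANK-/- lay within a narrow range, and the low RANK+/+ RNA of pair 3 gave that pair the largest ratio. The log2 ratios were 0.47, 0.88 and 1.55, with a mean of 0.97 ± 0.54, or 1.96-fold higher, and technical arrays differed by at most 0.07. The mean was 0.68 without pair 3 and 1.21 without pair 1. With median centring in place of loess, which moved the median of all genes to -0.14, it was 0.51. In the main setting 201 genes had a higher mean and 74.6% of genes had a smaller SD, again as a description of a gene chosen on these ratios. No spot was saturated (0 in all).

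The class I genes around H2-T23 ran the same way in most cases. Of 16 other class I heavy chain genes and class I regulators, 13 were tested, 9 were higher and 0 lower in all 3 pairs (against 9.93% and 9.65% of all genes), and 0 were called by either test. Their median was 0.22, 0.98 and 1.30 in pairs 1, 2 and 3. Irf1, an interferon-induced transcription factor that acts on class I promoters, had the highest mean (1.15 ± 0.75), and H2-Q4 the lowest of those with 1 sign (0.15 ± 0.10). B2m, the light chain that Qa-1 shares with all class I molecules, was 0.22, 1.70 and 1.30. H2-K1 (1.04, 0.47 and 1.53) and H2-D1 (0.47, 0.78 and 1.60), the classical class I heavy chains, were positive in every pair. Nlrc5, the class I transactivator, was -0.81, 1.47 and 0.83. Class I genes are close relatives, and how much a probe of 1 gene reads another was not tested.

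The median of fibroblast markers was also positive in every pair. All 9 of 9 were tested, 0 were called, 3 were higher, 0 lower and 6 mixed, Lum (-0.23, 1.04 and 2.33) among the mixed ones. Their median was 0.16, 0.85 and 1.94, in the same order of pairs as H2-T23. Their mean level was 12.57 to 13.23 in the RNAs labeled RANK-/- and 11.39 to 12.53 in those labeled RANK+/+. In RNA from many cells, more cells of a type and more RNA per cell cannot be told apart, and the part of fibroblasts in the class I values was not tested.

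The promoters of H2-T23 and Lgals9 are printed because, among the 7 of 9 ligand genes with a RefSeq promoter, they alone held a core of the interferon-stimulated response element (GAAANNGAAA, either strand) within 250 bases before the start. That core is in 2.98% of all promoter windows. The sequences below run 5′ to 3′ along the gene, on the minus strand of GRCm38.p6, at chr17:36032702-36032951 for H2-T23 and chr11:78984925-78985174 for Lgals9. Capitals mark the core, which starts 124 bases before the H2-T23 start and 55 bases before the Lgals9 start and reads on the opposite strand.
H2-T23: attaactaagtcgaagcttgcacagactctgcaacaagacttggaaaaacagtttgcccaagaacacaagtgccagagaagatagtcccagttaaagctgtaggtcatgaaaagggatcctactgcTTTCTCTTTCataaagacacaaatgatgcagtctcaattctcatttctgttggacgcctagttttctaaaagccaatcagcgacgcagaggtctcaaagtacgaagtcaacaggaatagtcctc
Lgals9: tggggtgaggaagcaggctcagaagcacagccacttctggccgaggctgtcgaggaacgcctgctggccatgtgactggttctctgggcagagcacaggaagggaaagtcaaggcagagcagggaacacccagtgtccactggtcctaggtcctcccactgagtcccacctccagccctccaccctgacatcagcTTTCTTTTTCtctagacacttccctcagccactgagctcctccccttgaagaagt
The gamma-activated site core (TTCNNNGAA), present in 7.02% of windows, was in none of the 9 windows of these 7 genes, that of Cd274 included. The match is one of letters in this window alone.

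Cd274 had 1 probe, and it was well above background for both genotypes on all 6 arrays. Its level was 8.22, 8.06 and 6.79 in the RNAs labeled RANK+/+ and 7.90, 9.09 and 7.41 in those labeled RANK-/- of pairs 1, 2 and 3. The groups overlapped, and both RNAs of pair 3 lay below those of the other pairs. The log2 ratios were -0.32, 1.03 and 0.62, with a mean of 0.44 ± 0.69, so that the spread between pairs exceeded the mean. Without pair 1 the mean was 0.82, and without pair 2 it was 0.15.

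Lgals9 had the signs of Cd274. Its level was 11.83, 11.20 and 9.53 in the RNAs labeled RANK+/+ and 11.25, 11.72 and 10.33 in those labeled RANK-/-. The groups overlapped, and pair 3 was again the lowest in both. The log2 ratios were -0.58, 0.53 and 0.81 (mean 0.25 ± 0.73). The mean was 0.67 without pair 1, -0.03 without pair 3 and 0.05 with median centring.

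Cd47 was read by 2 probes, both well above background on all arrays. The brighter (A_55_P2182483) was at 12.47, 11.90 and 11.40 in the RNAs labeled RANK+/+ and at 12.11, 12.13 and 11.90 in those labeled RANK-/-. The groups overlapped, and the RNAs labeled RANK-/- varied less. The log2 ratios were -0.36, 0.23 and 0.50 (mean 0.12 ± 0.44). The other probe (A_51_P221014) gave -0.03, 0.19 and 0.21 (mean 0.13 ± 0.14), with the same signs and smaller ratios. With median centring the Cd47 mean was -0.11.

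Pvr had another order of pairs. Its level was 10.78, 10.71 and 10.25 in the RNAs labeled RANK+/+ and 11.22, 10.18 and 11.29 in those labeled RANK-/-. The groups overlapped, since the RANK-/- RNA of pair 2 was the lowest of the 6. The log2 ratios were 0.44, -0.53 and 1.04 (mean 0.32 ± 0.79), and the mean was -0.05 without pair 3 and 0.11 with median centring. Markers of luminal epithelium, all 9 of 9 tested, had medians of 0.45, -0.55 and 0.93, with 0 higher and 0 lower in all pairs. Their mean level was 13.09 to 14.51 in the RNAs labeled RANK-/- and 13.56 to 13.98 in the others. Cdh1, Cldn7, Krt8 and Krt19 of this list had other signs than Pvr. The medians of the galectin list, at 0.47, -0.21 and 1.07, had the signs of Pvr as well. The part of luminal cells in the Pvr values was not tested.

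For 3 of the 4 checkpoint ligands the sign followed the dye. Turned to red over green, Cd274, Lgals9 and Cd47 were negative in all 3 pairs, that is, the RNA in green had the higher normalized level whatever its genotype. Among all genes, green was higher in all 3 pairs in 13.5% and red in 15.4% (0 of the 6 ligand genes). Pair 1 is also the 1 pair with RANK-/- in red, and by the labels arrays A and B of a pair have the same dyes. According to its methods, the study swapped dyes for every sample, which the labels do not show; with the signs of the labels, arrays A and B correlated with r of 0.973 to 0.983 across genes. As labeled, a dye effect and a difference between pair 1 and the others cannot be told apart.

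The medians of the general leukocyte list and of the macrophage and dendritic cell list had the signs of Cd274, Lgals9 and Cd47, while their genes were mixed. The medians of the neutrophil, NK-cell and T-cell lists did not have these signs. The 6 of 6 general leukocyte genes, all tested, had medians of -0.86, 0.13 and 0.21, and the 9 of 10 tested macrophage and dendritic cell genes had -0.28, 0.25 and 0.26, with 0 higher and 0 lower in all pairs in both lists. The pattern of below 0 in pair 1 and above it in pairs 2 and 3 was that of 4 of the 6 and 4 of the 9 genes, and Lcp1 (0.49, -0.52 and 0.44) and Cd14 (0.64, -0.07 and 1.27) were among those with another. The mean level of the leukocyte genes was 7.90 to 8.50 in the RNAs labeled RANK-/- and 7.46 to 9.09 in those labeled RANK+/+, and that of the macrophage genes 8.66 to 9.18 and 8.43 to 9.42. Of 7 neutrophil genes 3 were tested: S100a9 was -4.12, -0.04 and -0.25, S100a8 was -3.99, 0.07 and -0.11, and Csf3r was 0.42, -0.03 and -0.05. Of the lymphoid markers, 2 of 8 T-cell genes, 4 of 8 NK-cell genes and 0 of 5 B-cell genes were tested, with Ncr1, Klrb1c and Klrk1 above background on 0 arrays. The T-cell median was 0.06, 0.03 and 0.08, and the NK-cell median was -0.36, 0.04 and -0.01. The part of residual leukocytes in the values of Cd274, Lgals9 and Cd47 was not tested.

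**Figure D4:**
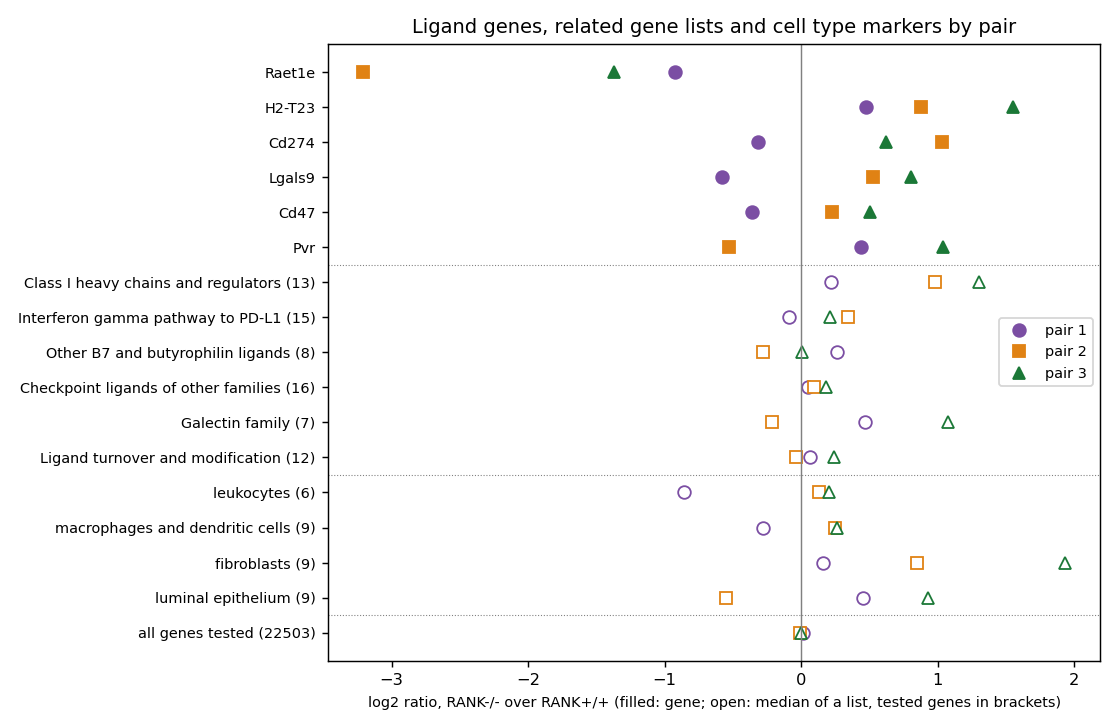
Log2 ratio of the RANK-/- labeled over the RANK+/+ labeled channel in each of the 3 pairs. Filled points are the 6 tested ligand genes, and open points are medians of gene lists, with the number of tested genes in brackets. Cd274, Lgals9 and Cd47 lie left of 0 in pair 1 and right of it in pairs 2 and 3, as do the leukocyte, macrophage and interferon gamma lists. The neutrophil, NK-cell and T-cell lists are not drawn. Pvr and the luminal, galectin, B7 and ligand turnover lists lie left of 0 in pair 2 and right of it in pairs 1 and 3. The medians of B7 in pair 3 (0.007) and ligand turnover in pair 2 (-0.04) are near 0. Those of all genes tested have the same signs at 0.02, -0.01 and 0.0009.

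Genes upstream of PD-L1, of the interferon gamma pathway and others such as Myc, Hif1a, Nfkb1 and Rela, were mixed. All 15 of 15 were tested, 0 were called by either test, 3 were higher in all pairs (Irf1, Stat3 and Socs1) and 1 was lower. The highest mean among these was that of Irf1 and the lowest that of Myc, a transcription factor that promotes growth (-0.46 ± 0.19). The median of the whole list was -0.09, 0.35 and 0.21, with the signs of Cd274, and does not stand for interferon gamma signaling alone.

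Other ligands of the same families gave few shared signs. Of 11 other B7 and butyrophilin genes, 8 were tested, with 0 called, 1 higher and 3 lower in all pairs (median 0.27, -0.28 and 0.01). The highest was Vsir (0.42 ± 0.37), which encodes VISTA, and the lowest Cd276 (-0.52 ± 0.64), which encodes B7-H3. Pdcd1lg2, the gene of PD-L2, was above background on 0 arrays. Of 20 ligands of other families, 16 were tested, with 0 called, 1 higher (Tnfsf18, the ligand of GITR, 0.34 ± 0.23) and 1 lower (Nectin1, a cell adhesion molecule, -0.34 ± 0.49). Nectin2, which like Pvr binds TIGIT, was -0.36, 0.20 and 0.91. Of 8 genes in the galectin list, 7 were tested, with 0 called, 1 higher in all pairs and 0 lower. The higher one, Lgals3bp (0.94 ± 0.43), is a secreted binding partner of galectins and not a galectin. The tested galectin genes of this list were all mixed.

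Genes that set the amount or activity of these ligands at the protein level gave few shared signs too. Of 12, all were tested, 0 were called, 2 were higher and 0 lower in all pairs, with a median of 0.06, -0.04 and 0.24. The higher ones were Calr, the chaperone calreticulin that also marks cells for phagocytosis (0.49 ± 0.33), and Pdia6, a disulfide isomerase (0.39 ± 0.28). Cmtm6, which keeps PD-L1 at the cell surface, was 0.47, -0.70 and -0.01. Qpctl, the enzyme that modifies CD47 for SIRPα binding, was -0.11, -0.15 and 0.75. Of 14 checkpoint receptor genes of leukocytes, 4 were tested, with 0 called, 0 higher and 1 lower in all pairs (Cd28, a costimulatory receptor, -0.06 ± 0.06). Pdcd1, the gene of PD-1, was above background on 1 array in the RANK-/- labeled channel and on 3 in the other.

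The levels of some ligand genes went together over the 6 RNAs, given as a description since the RNAs share arrays in pairs. Pearson r was 0.908 for Cd274 with Lgals9 and 0.915 for Cd47 with Lgals9. It was -0.783 for Raet1e with H2-T23 and -0.215 for Cd274 with Pvr. Raet1e and H2-T23 were chosen on ratios of these same RNAs and had opposite signs in every pair. A negative r between them was thus largely set in advance. Among all tested genes, the 5 with the highest r to Cd274 were Irgm2 (0.996), Drc1 (0.995), Irgm1 (0.989), Gm12250 (0.989) and Trim26 (0.987). All 5 were negative in pair 1 and positive in pairs 2 and 3, with Irgm2 at -0.26, 1.95 and 1.18. Genes picked by their likeness to Cd274 over the same RNAs largely share its signs for that reason. The 5 with the highest r to Raet1e were the unnamed transcript of A_55_P2009604 (0.982), NM_009017 (0.977), Slc26a9 (0.977), BB713564 (0.974) and the unnamed transcript of A_55_P1960664 (0.974). All 5 were lower in all pairs, which largely follows from picking them by their likeness to Raet1e. The ratios were small for BB713564 (-0.01, -0.12 and -0.07) and A_55_P1960664 (-0.09, -0.15 and -0.09). Those of A_55_P2009604 were -0.09, -0.75 and -0.37. NM_009017, a transcript without an entry in the RefSeq table, was at -0.12, -1.63 and -0.79, and whether its probe reads a RAE-1 copy was not tested. Slc26a9, an anion transporter gene, was at -0.84, -1.70 and -0.68. Of the 22503 genes, 186 exceeded an r of 0.9 with Cd274 and 81 with Raet1e.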

How the data were processed

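Spots of 6 two-color SurePrint G3 Mouse arrays were quantified by the authors (Feature Extraction 10.7.3.1). Deposited scanner tables hold median spot and background intensity without normalization, and processed intensity values; the deposited series table holds log2 ratios normalized by the authors. The last 2 served only as alternatives. Median signals were corrected with normexp (offset 50) in limma 3.58.1 (R 4.3.3), control and outlier spots were removed, and ratios were normalized by intensity loess and Aquantile. Arrays A and B were averaged, and the brightest probe stood for a gene. Of the gene probes, 28026 matched a RefSeq symbol (GRCm38.p6) by accession; others kept the name in the files. Over all genes, limma and a rank product (500 seeded draws; pfp, proportion of false positives) were run on the 3 pair ratios, after both were tested on simulated data. All arrays shared 1 slide and 1 scan date. The ligand genes, gene lists and tests were chosen with earlier results of these data known. Named were the ligand genes, the called genes or else the highest and lowest gene with 1 sign per list, and the 5 genes most like Raet1e and Cd274; others named were chosen after their values were seen. Motifs were searched in RefSeq promoters. The number of arrays limits the precision.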

Additional observations from a re-analysis of the deposited data

How the results depend on the processing

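Raet1e stayed negative and H2-T23 and Cd274 positive under all 16 alternatives, at -2.29 to -1.15, 0.51 to 1.21 and 0.15 to 0.82. Part of this was fixed in advance. Each of these genes has 1 probe, so its mean was unchanged by the filter settings and by averaging over probes. Leaving out a pair cannot turn the sign of Raet1e or H2-T23, whose pairs all share it. The means of Cd47 (-0.11 to 0.37), Lgals9 (-0.03 to 0.67) and Pvr (-0.05 to 0.74) changed sign in 2, 1 and 1 of 16. The ligand genes higher in all pairs numbered 1, and 1 to 4 with a pair left out (4 without pair 1, 2 without pair 2); those lower numbered 1, and 2 with median centring or with no filter on dim probes, which adds Ulbp1, H60b and H60c. Limma called 0 genes under all 17 alternatives, a dye term included. Without a replicate block, that is with channels as 3 against 3 samples, limma still called 0 (830 genes had an unadjusted p under 0.05), and the means were unchanged by construction; signs per pair do not exist there. Deviations of the 2 RNAs of a pair from their group means were not positively correlated (r -0.0335, -0.218 and -0.0412). The rank product called 16 genes, 35 with no filter, where more genes were tested (36798), 19 with 5000 draws (chosen after seeing the data), and 2 to 22 with a pair left out (3 without pair 1, 2 without pair 3). Its split into 10 higher and 6 lower was 6 and 6 with median centring, 4 and 12 with normexp offset 0, 4 and 13 with offset 16, 4 and 17 when processed signals were used and 7 and 17 when the series table was. Raet1e, chosen on these ratios, was not among the 16 and was among the genes called under 6 of 16 alternatives. Its rank product pfp was 0.0547 in the main setting, close to the threshold, and 0.022 to 0.454 under the alternatives, given as a description. With 5000 draws the ratios were those of the main setting and only the number of draws differed. The cause of the other shifts was not tested.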
